A study of Mus musculus with 12 samples.

Results

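Mouse muscle tumours driven by an activated human YAP1 transgene were compared at day 0 and 6 days after the transgene's inducer, doxycycline, was taken away. The comparison used 6 of the 12 arrays of the series, chosen by their labelled group: 3 arrays of tumours kept on doxycycline (day 0 tumours) and 3 of tumours 6 days off it (6-day tumours). The other 6 arrays, 3 of tumours 3 days off doxycycline and 3 of uninduced hindlimb muscle, entered the same statistical fit and served as points of reference. All donor mice were C57BL/6 and carried Myf5Cre, R26-LSL-rtTA and Col1a-Teto-hYAP1 S127A, and the control muscle came from mice of that genotype that were never induced. Donors of the tumour groups received doxycycline for 4 weeks. Interstitial cells of their hindlimb muscle were then put into the gastrocnemius of NOD/SCID hosts on doxycycline, and the inducer was withdrawn once the hosts bore tumours.

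In this model Myf5Cre opens the rtTA gene in cells with a history of Myf5, a muscle lineage gene, so doxycycline drives the transgene in those cells and their descendants. The S127A change removes a site at which the Hippo kinases mark YAP1 for retention in the cytoplasm. YAP1 acts in the nucleus with the TEAD family of DNA-binding factors. In cultured and regenerating muscle it is known for keeping myoblasts dividing and for holding back their differentiation, a process that runs from the factors Myod1 and Myog to cell fusion and the building of sarcomeres. NOD/SCID hosts lack mature T and B cells but still have macrophages and other myeloid cells. Each tumour also holds host vessels and stroma and, having grown in the gastrocnemius, may hold host muscle fibres. All cells present contribute RNA to a bulk sample. In such a sample fewer cells of a type and less RNA per cell cannot be told apart.

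Each array reported 1 deposited intensity per probe set, and all values below are log2 of that intensity. After 1 probe set was kept for each gene, 19937 genes were tested. Median intensity per array ran from 86.74 to 93.05. Desmin (Des), the intermediate filament of muscle, lay between 12.13 and 12.73 on the tumour arrays of day 0 and day 6. It was named after its values were seen. Des is also on the pericyte and smooth muscle list, and host fibres may add to it, so its level does not tell which cells made it. The T cell marker Cd3e (about 6), the B cell marker Ms4a1 (about 4.4) and the NK receptor Klrb1c (about 4.5) were low on these arrays. They are 3 of 23 measured T, B and NK cell markers, named after their values were seen. Others on that list were not low, such as Gzmf with 10.2, 10.21 and 10.23 at day 0. Nothing in the labels ties the 3 replicates of a group to separate animals. The p-values therefore cover only the spread among these arrays, which may be technical.

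Replicate 2 of the 6-day tumours stood apart from the other replicates of its group. Its mean correlation over all genes was 0.991 with its own group and 0.995 with the 3-day tumours, whereas replicates 1 and 3 had 0.995 with their group and 0.988 and 0.989 with the 3-day tumours. A total of 97 genes lay more than 2-fold above both other 6-day arrays on replicate 2, and 27 lay more than 2-fold below them. The same counts were 0 and 0 for replicates 1 and 3. The genes farthest above were Pvalb (parvalbumin, a calcium buffer of fast fibres), Ccl8, Cd209f, Cbr2, Mmp3 and Vsig4, of which Ccl8, Cd209f and Vsig4 are macrophage genes. Those farthest below were Hephl1, Chad, Zfp365, Uchl1, Syt12 and Tmem47. The Y-linked gene Uty also differed on that array, with 7.02, 8.16 and 7.16 on the 6-day arrays, 7.5, 7.3 and 7.41 at day 0 and 4.84, 4.56 and 4.71 in uninduced muscle. Xist, made from the inactive X chromosome, stood between 10.7 and 11.46 on all 12 arrays. The median of the 4 measured sex-linked genes, these among them, was 6.99, 7.99 and 7.04 on the 6-day arrays. It was 8.16, 7.8 and 7.97 on the 3-day arrays and 7.37, 7.17 and 7.37 at day 0. Results that turn on replicate 2 are given below with and without it.

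At day 6, 2962 genes were higher than at day 0 (14.9% of those tested) and 3317 were lower (16.6%), at an adjusted p under 0.05 in limma's moderated test with Benjamini-Hochberg adjustment. The difference was at least 2-fold for 465 of the higher and 427 of the lower genes. The median difference over all genes was 0.05. The largest rise was that of Myh8, the neonatal myosin heavy chain, and the largest fall that of Atp6v0d2, a proton pump subunit known from osteoclasts. The plot of the largest differences gives the value of every tumour array for 15 genes in each direction, chosen among called genes whose arrays do not overlap between the groups. Up to 4 members named for each list below were chosen under the same condition. For most of them a lack of overlap therefore follows from the choice.

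**Figure D1:**
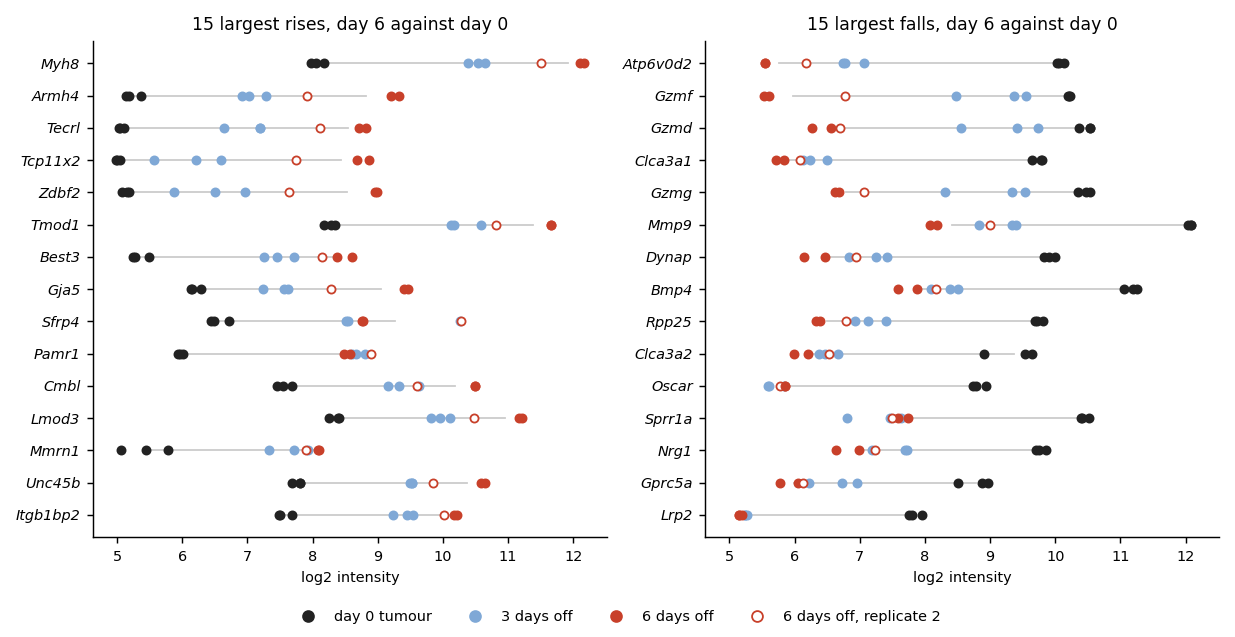
Log2 intensity (x axis) of the 15 genes with the largest rise (left) and the 15 with the largest fall (right) between day 0 and 6 days off doxycycline, 1 point per array, with the 3-day tumours between and replicate 2 of the 6-day tumours drawn open. The genes were taken from those that passed the test and whose 6-day and day 0 arrays do not overlap, so the gap between the groups is a condition of the choice. Myh8 (3.85 higher) and Atp6v0d2 (4.32 lower) head the panels.

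Of the 15 largest rises, those of Myh8, Tmod1, Lmod3 and Unc45b belong to the muscle lists. Myh8 read 8.17, 7.97 and 8.06 at day 0 and 12.16, 11.5 and 12.1 at day 6, a rise of 3.85 ± 0.17 (log2 difference ± standard error, 14.5-fold, adjusted p = 1.61e-08). Every 6-day array lay far above every day 0 array. Tmod1, which caps the slow-growing end of the actin filament, rose by 3.11 ± 0.19, Lmod3, which nucleates actin in the thin filament, by 2.61 ± 0.16, and Unc45b, the chaperone that folds myosin, by 2.60 ± 0.16. Itgb1bp2 (melusin), a partner of β1 integrin in muscle, rose from 7.5, 7.68 and 7.48 to 10.17, 10.02 and 10.22.

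The rest of the 15 are outside those lists. Zdbf2, an imprinted gene, read 5.08, 5.19 and 5.15 at day 0 and 8.99, 7.64 and 8.96 at day 6. The rise was 3.39 ± 0.33 (adjusted p = 5.74e-06), with replicate 2 the lowest of the 6-day arrays but still well above day 0. Armh4 (3.59 ± 0.28), Tecrl (3.50 ± 0.20) and Tcp11x2 (3.42 ± 0.27) also started near 5. The chloride channel gene Best3 rose by 3.04 ± 0.14 and Gja5, which encodes the gap junction protein connexin 40, by 2.86 ± 0.24. Sfrp4, a secreted Wnt antagonist, rose by 2.72 ± 0.45, with 8.77, 10.28 and 8.76 on the 6-day arrays, and by 2.21 without replicate 2.

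Among members of the YAP-TEAD target list, 13 of the 24 measured fell, 5 rose and 6 were not called, with a median difference of -0.48. Amotl2, an angiomotin that binds YAP1 and is itself one of its targets, read 10.06, 10.07 and 9.94 at day 0 and 8.01, 7.81 and 8.01 at day 6. Its fall of 2.08 ± 0.08 (adjusted p = 8.62e-09) was the largest of the list. The groups did not overlap in Amotl2, and over the list 6 members were wholly higher and 15 wholly lower at day 6, against 26.9% and 21.6% of all genes. Ajuba, a LIM protein that restrains the Hippo kinases, read 9.8, 9.89 and 9.8 at day 0 and 8.15, 7.95 and 8.12 at day 6 (a fall of 1.76 ± 0.12). Birc5 (survivin), a target of YAP1 and also a mitotic gene, fell by 1.79 ± 0.08, and Ccn1 (Cyr61), a secreted matrix protein widely used as a YAP readout, by 1.31 ± 0.07.

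Ccn2 (Ctgf), the other widely used readout, did not follow Ccn1. It read 11.0, 11.08 and 11.11 at day 0 and 11.43, 11.55 and 11.44 at day 6, a rise of 0.41 ± 0.07 (adjusted p = 0.000817) with no overlap. Ankrd1, an ankyrin repeat protein of muscle and another such readout, read 11.67, 11.6 and 11.67 at day 0 and 11.5, 10.74 and 11.48 at day 6. Its difference of -0.41 ± 0.16 did not pass (adjusted p = 0.0797), was -0.16 without replicate 2, and its 6-day level stayed 3.14 above that of uninduced muscle. Gadd45a, a stress-response gene on the list, rose by 1.62 ± 0.12.

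The 250 bases before the annotated start of 7 genes described in the text are shown because YAP1 reaches DNA through TEAD factors, muscle factors through E-boxes, and cell cycle genes carry CHR elements and CCAAT boxes. Sequences and coordinates are from RefSeq, build GRCm38.p6, read 5′ to 3′ on the gene's strand. Capitals mark the letters searched on both strands. They were GGAATG for the TEAD motif, which reads CATTCC where it lies on the opposite strand. The E-box was searched as CAGCTG. The CHR was searched as TTTGAA. The last was CCAAT, a box found in many promoters. Amotl2 lies at chr9:102717554-102717803 (plus strand) and has 1 TEAD match 65 bases before the start. Ajuba lies at chr14:54577662-54577911 (minus strand), with TEAD matches at 186 and 164 bases, an E-box at 92 and a CCAAT box at 85. Birc5 lies at chr11:117848987-117849236 (plus strand), with an E-box at 159 bases and no TEAD match. Bub1 lies at chr2:127831860-127832109 (minus strand) with CCAAT boxes at 68 and 42 bases, and Ect2 at chr3:27153879-27154128 (minus strand, the first of 2 windows) with a CHR at 114 and CCAAT boxes at 96 and 55. Myh8 lies at chr11:67276874-67277123 (plus strand) with a CCAAT box at 86, and Myh3 at chr11:67078050-67078299 (plus strand) with no match to any of the 4.
Amotl2: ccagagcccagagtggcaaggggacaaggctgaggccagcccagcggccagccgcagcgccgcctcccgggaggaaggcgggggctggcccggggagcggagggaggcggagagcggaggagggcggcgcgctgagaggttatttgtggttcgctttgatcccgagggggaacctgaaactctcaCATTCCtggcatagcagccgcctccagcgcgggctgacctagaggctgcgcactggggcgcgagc
Ajuba: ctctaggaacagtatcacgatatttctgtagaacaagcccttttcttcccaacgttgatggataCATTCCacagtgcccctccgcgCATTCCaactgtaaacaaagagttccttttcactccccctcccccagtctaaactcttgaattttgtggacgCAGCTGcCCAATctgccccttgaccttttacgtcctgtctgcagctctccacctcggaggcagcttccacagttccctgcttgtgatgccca
Birc5: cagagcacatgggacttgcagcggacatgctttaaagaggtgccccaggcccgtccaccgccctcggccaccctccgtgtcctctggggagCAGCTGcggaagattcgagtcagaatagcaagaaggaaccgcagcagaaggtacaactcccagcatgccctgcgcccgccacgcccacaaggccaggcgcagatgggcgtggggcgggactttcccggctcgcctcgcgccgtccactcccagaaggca
Bub1: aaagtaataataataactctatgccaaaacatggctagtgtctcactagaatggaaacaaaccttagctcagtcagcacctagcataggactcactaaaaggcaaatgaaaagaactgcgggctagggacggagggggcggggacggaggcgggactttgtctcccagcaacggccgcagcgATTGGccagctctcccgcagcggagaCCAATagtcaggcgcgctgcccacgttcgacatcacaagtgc
Ect2: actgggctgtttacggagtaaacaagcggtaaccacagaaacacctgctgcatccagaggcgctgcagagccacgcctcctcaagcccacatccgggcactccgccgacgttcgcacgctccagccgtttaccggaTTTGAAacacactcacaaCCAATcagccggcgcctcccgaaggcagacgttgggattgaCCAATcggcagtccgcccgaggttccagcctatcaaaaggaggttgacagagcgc
Myh8: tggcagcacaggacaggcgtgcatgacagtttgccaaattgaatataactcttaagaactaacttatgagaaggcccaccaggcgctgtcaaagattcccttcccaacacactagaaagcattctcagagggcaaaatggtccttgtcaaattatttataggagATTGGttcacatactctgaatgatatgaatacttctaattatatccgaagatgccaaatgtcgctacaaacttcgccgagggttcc
Myh3: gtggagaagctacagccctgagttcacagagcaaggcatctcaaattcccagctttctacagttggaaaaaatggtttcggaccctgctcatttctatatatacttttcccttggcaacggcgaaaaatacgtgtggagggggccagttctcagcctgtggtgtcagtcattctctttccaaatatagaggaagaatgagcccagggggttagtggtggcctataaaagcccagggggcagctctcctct

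Windows of this kind were held for 15613 of the tested genes, and the TEAD letters occurred in 13.2% of them, the E-box in 14.5%, the CHR in 15.7% and CCAAT in 38.8%. Of 19 YAP-TEAD target genes with a window, 8 held the TEAD letters. Among 28 chromosome segregation genes, 10 held the CHR and 21 held CCAAT. All 12 sterol synthesis genes with a window held CCAAT, and of 20 myosin and thick filament genes 8 held the TEAD letters and 7 the E-box. These are counts of letters in the windows and say nothing about binding by a factor.

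Upstream of the targets, 9 of 21 genes for Hippo kinases, scaffolds and TEAD factors fell and 5 rose, with a median of -0.13. Tead4, the TEAD factor of myoblasts, rose from 8.32, 8.43 and 8.45 to 10.14, 9.13 and 10.22, a difference of 1.43 ± 0.21. A lack of overlap was a condition of its choice, and replicate 2 was again the lowest of its group. Frmd6, a scaffold that activates the kinases, fell by 1.04 ± 0.10 and the scaffold Wwc2 by 0.85 ± 0.07, while the giant cadherin Fat4 rose by 0.75 ± 0.12. Yap1 itself was 9.83, 9.88 and 9.86 at day 0 and 9.68, 9.5 and 9.65 at day 6, a fall of 0.25 ± 0.07 (adjusted p = 0.0203) that did not pass without 6-day replicate 2 (adjusted p = 0.0609) or without day 0 replicate 2 (0.0631) or 3 (0.0614). The probe set is designed for the mouse gene, and how far it reads the human transgene was not tested.

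Growth factor and MAPK genes moved both ways. Of 13 EGF receptors and ligands, 5 fell and 3 rose. Nrg1 (neuregulin 1), a ligand of ERBB3 and ERBB4, read 9.75, 9.71 and 9.85 at day 0 and 6.64, 7.23 and 6.99 at day 6, a fall of 2.82 ± 0.16 (7.06-fold). The ligands Ereg and Hbegf fell by 1.61 ± 0.11 and 1.29 ± 0.14. The receptor Erbb3 moved the other way, from 7.55, 7.62 and 7.59 to 10.36, 9.38 and 10.2, a rise of 2.40 ± 0.20. Among 22 AP-1 and MAPK feedback genes 8 fell and 5 rose. Fosl1 (Fra-1), an AP-1 subunit induced by ERK signalling, read close to 10.5 on the 3 day 0 arrays and 8.66, 8.13 and 8.73 at day 6, a fall of 2.01 ± 0.20. The ERK phosphatases Dusp4 and Dusp5 fell by 1.20 ± 0.15 and 0.84 ± 0.08, while the immediate early factor Egr2 rose by 0.54 ± 0.11.

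Genes of chromosome segregation fell without exception. All 36 measured members were lower at day 6, by 1.02 to 2.65, with a median of -1.81 (-1.70 without replicate 2). Bub1, the kinase of the spindle checkpoint, read 9.4, 9.43 and 9.49 at day 0 and 6.96, 6.35 and 7.07 at day 6, a fall of 2.65 ± 0.26 (adjusted p = 6.48e-06). Ect2, the exchange factor that starts cytokinesis, read 10.62, 10.58 and 10.39 and then 8.18, 7.62 and 8.15. Replicate 2 was the lowest 6-day array in both genes, and a lack of overlap between the groups was a condition of their choice. Top2a, the topoisomerase that untangles chromosomes, fell by 2.21 ± 0.22 and the kinesin Kif23 by 2.19 ± 0.16. Mki67, the proliferation antigen, fell by 1.79 ± 0.12.

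The machinery of S phase fell with it. All 33 DNA replication genes were lower, by 0.33 to 2.01, with a median of -1.20, and so were all 15 genes of homologous recombination and Fanconi repair (0.51 to 1.86, median -1.29). Pole, the leading strand polymerase, read 9.16, 9.09 and 9.15 at day 0 and 7.2, 6.94 and 7.23 at day 6. Brip1, a helicase of the Fanconi pathway, read 7.7, 7.6 and 7.67 and then 5.77, 5.81 and 5.82, so the 3 arrays of each group lay close together while the groups differed by 1.86 ± 0.09. Fancd2 fell by 1.73 ± 0.07 and Brca1, a central repair gene, by 1.64 ± 0.07. Of 20 genes for nucleotide, serine and one-carbon synthesis, 17 fell and none rose. The ribonucleotide reductase genes Rrm1 and Rrm2 fell by 1.75 ± 0.10 and 1.68 ± 0.18, and the thymidine enzymes Tk1 and Tyms by 1.56 ± 0.08 and 1.24 ± 0.09.

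At the G1 checkpoint 12 of 20 genes fell and 3 rose, or 13 and 5 without replicate 2. E2f7, a repressor of the E2F family, fell from 8.87, 8.85 and 8.99 to 7.01, 6.94 and 7.13, and cyclin E2 (Ccne2) fell by 1.14 ± 0.10. Ccnd1 (cyclin D1) read 12.49, 12.43 and 12.46 at day 0 and 11.29, 11.21 and 11.35 at day 6. It fell by 1.18 ± 0.09, yet its 6-day level was 2.19 above that of uninduced muscle. Rb1, the retinoblastoma protein that closes this checkpoint, rose by 0.88 ± 0.12. Myc fell by 1.29 ± 0.12, from 11.0, 11.13 and 11.05 to 9.8, 9.62 and 9.9. Of the 22 genes of ribosome biogenesis and Myc, 11 fell and 1 rose, or 11 and 4 without replicate 2, and the median was -0.29. The nucleolar genes Nop58, Rrs1 and Npm1 fell by 0.87 each, and Mxd1, a Myc antagonist, rose by 0.57 ± 0.11.

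**Figure D2:**
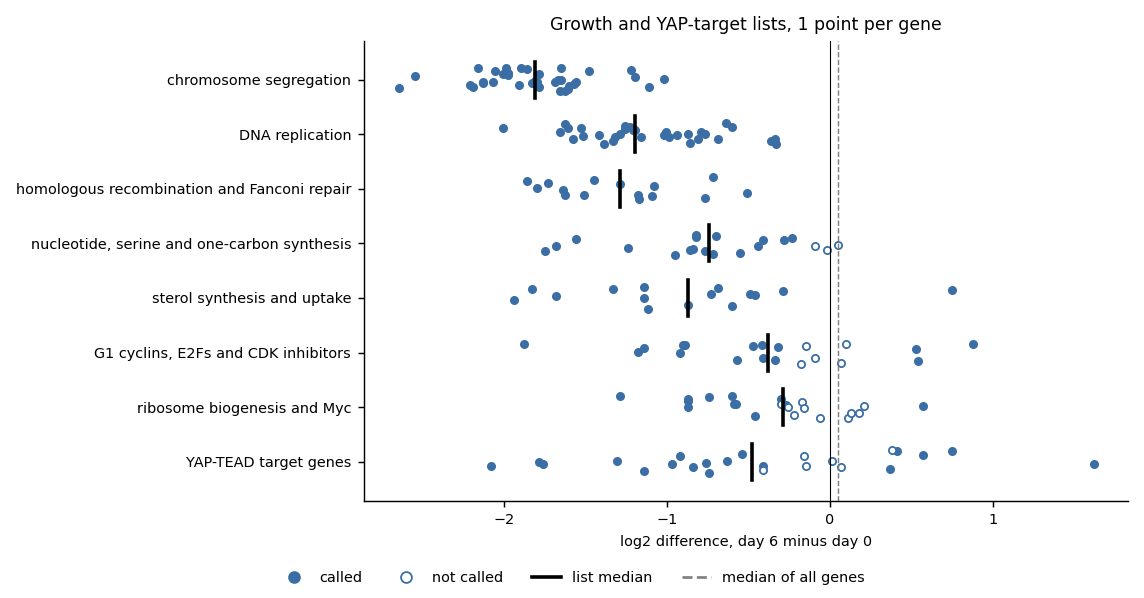
Log2 difference between the 6-day and day 0 tumours (horizontal axis) for each measured member of 8 gene lists, 1 point per gene, filled where called and open where not, with a bar at the list median and a dashed line at the median of all genes. Every point of the chromosome segregation (36), DNA replication (33) and homologous recombination (15) lists lies below 0, whereas the YAP-TEAD list spans -2.08 (Amotl2) to 1.62 (Gadd45a).

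Sterol synthesis and uptake genes fell in 14 of 15 cases, or 13 without replicate 2, with a median of -0.87. Lss (lanosterol synthase) read 8.82, 8.82 and 8.81 at day 0 and 6.8, 7.02 and 6.83 at day 6, a fall of 1.94 ± 0.11. Sqle (squalene epoxidase), the enzyme before it in the pathway, fell from 10.06, 10.16 and 10.2 to 8.39, 8.1 and 8.45. A lack of overlap between the groups was a condition of the choice of both genes. Cyp51, the next enzyme, fell by 1.68 ± 0.11 and Insig1, the sensor protein that retains the pathway's activator, by 1.33 ± 0.10. The exception was Dhcr7, the last enzyme, which rose by 0.75 ± 0.20 (adjusted p = 0.0132). Its 6-day arrays read 9.24, 8.32 and 9.29 against 8.18 to 8.23 at day 0, and the difference was 1.07 without replicate 2. That call was lost without 6-day replicate 1 (0.61, adjusted p = 0.0601) or replicate 3 (0.58, adjusted p = 0.0605). In the ATF4 and amino acid response list, 13 of 17 genes were not called, 2 rose and 2 fell, or 5 and 2 without replicate 2. The glutamine transporter Slc1a5 fell by 0.67 ± 0.07. Among 18 hypoxia and glucose uptake genes 9 fell and 4 rose, with the glucose transporter Slc2a1 lower by 0.71 ± 0.11 and the insulin-responsive transporter Slc2a4 higher by 0.62 ± 0.12.

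The myogenic factors moved in both directions, with 6 of 11 higher, 4 lower and a median of 0.26. Myod1, the factor that commits cells to muscle, read 10.2, 10.24 and 10.19 at day 0 and 11.65, 10.79 and 11.65 at day 6, a rise of 1.15 ± 0.17 (1.44 without replicate 2). Myog (myogenin), which starts terminal differentiation, read 9.31, 9.35 and 9.52 and then 10.74, 10.31 and 10.76. Both genes had no overlap between the groups, and replicate 2 was the lowest 6-day array in each. Mef2c, the partner of these factors, rose by 1.54 ± 0.10 and Myf6, the factor of mature fibres, by 1.27 ± 0.11. Myf5, expressed in dividing myoblasts, fell from 9.59, 9.43 and 9.57 to 8.67, 8.5 and 8.77.

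Inhibitors of these factors were mixed: 5 of 15 rose and 3 fell, or 7 and 3 without replicate 2, with a median of 0.11. The Notch effector Hey1 rose by 0.75 ± 0.10 and the inhibitor Id1 by 0.67 ± 0.08, while Snai1, a repressor that occupies E-boxes, fell by 0.61 ± 0.10. Of 15 satellite cell surface and quiescence genes 7 fell and 2 rose. Met, the HGF receptor, fell from 10.62, 10.6 and 10.57 to 9.37, 9.15 and 9.31, and the proteoglycan Sdc4 fell by 0.96 ± 0.08. Pax7, the factor that defines satellite cells, fell by 0.31 (adjusted p = 0.0125), a call that was lost without 6-day replicate 3 (adjusted p = 0.0547). Megf10, a scavenger receptor of satellite cells and myoblasts, went the other way, from 6.88, 7.06 and 6.98 to 9.69, 8.82 and 9.78, a rise of 2.45 ± 0.20.

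The sarcomere lists rose nearly as a whole. The part that host muscle fibres play in the values of these and the other muscle lists was not tested. Of 22 myosin and thick filament genes 19 rose and none fell (median 1.28), of 19 troponins, tropomyosins and actins 16 rose (median 1.40), and of 19 Z-disc and scaffold genes 18 rose and 1 fell (median 1.18). Myh3, the embryonic myosin heavy chain, read 9.68, 9.66 and 9.69 at day 0 and 12.11, 11.65 and 12.11 at day 6, a rise of 2.28 ± 0.12 (4.87-fold). Tnni1, the slow troponin I that developing fibres also use, read 9.67, 9.73 and 9.63 and then 12.18, 11.69 and 12.23. In both genes the gap between the groups was many times the spread within them. For Tnni1 a lack of overlap was a condition of its choice. Tnnt1 rose by 2.13 ± 0.13 and the M-band protein Myom3 by 2.00 ± 0.15. Tcap (telethonin), which caps titin at the Z-disc, rose from 7.25, 7.36 and 7.3 to 9.27, 9.18 and 9.27. The member of the Z-disc list that fell was Ankrd2, a stretch-responsive ankyrin repeat protein (0.45 ± 0.11). In the list of troponins, tropomyosins and actins, the 1 call of a fall was that of Tpm3 (0.33 ± 0.07 on the probe set kept here). Its probe sets disagreed: their median gave 0.22 and the most variable one 0.93, so no direction is given for it.

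The systems around the sarcomere rose as well. In excitation-contraction coupling 17 of 23 genes rose and none fell (median 1.08), or 18 and 1 without replicate 2. Cacna1s, the voltage sensor of the T-tubule, read 8.99, 9.08 and 8.97 at day 0 and 11.64, 10.86 and 11.55 at day 6, a rise of 2.33 ± 0.16. Casq2, a calcium store of slow and immature fibres, rose by 1.95 ± 0.15, and Cacnb1, a subunit of the same channel as Cacna1s, by 1.93 ± 0.18. At the neuromuscular junction 10 of 13 genes rose and none fell. Chrng, the acetylcholine receptor subunit of fetal muscle, read 9.21, 9.25 and 9.24 and then 11.06, 10.47 and 11.18, and Colq, the anchor of acetylcholinesterase, rose by 1.78 ± 0.07. All 6-day arrays lay above the day 0 arrays in these genes, which was a condition of their choice.

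Fusion and membrane repair genes rose in 11 of 17 cases and fell in 3. Mymx (myomixer), a micropeptide that opens the fusion pore, read 7.6, 7.55 and 7.71 at day 0 and 9.67, 9.32 and 9.72 at day 6, a rise of 1.95 ± 0.10 (adjusted p = 5.53e-08). Trim72, which reseals torn membrane, rose by 2.20 ± 0.18 and Cav3, the muscle caveolin, by 1.73 ± 0.17. The adhesion molecule Cdh2 (N-cadherin) fell by 0.97 ± 0.16 and stood 3.39 above uninduced muscle at day 6. Muscle chaperones and turnover genes rose in 11 of 15 cases and fell in 2. Smyd1, a myosin-binding methyltransferase, rose by 2.02 ± 0.16 beside Unc45b, and Trim55, a ubiquitin ligase of the M-band, by 2.25 ± 0.17. The general chaperone Hsp90aa1 fell by 0.66 ± 0.06.

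Muscle isoforms of energy metabolism rose in 18 of 20 cases with no fall, at a median of 1.08. Gpd1, the enzyme of the glycerol phosphate shuttle, read 7.49, 7.24 and 7.39 at day 0 and 9.94, 9.42 and 9.88 at day 6, a rise of 2.38 ± 0.14. Pgam2, the glycolytic mutase of muscle, rose by 2.02 ± 0.14, and Cox6a2, the muscle form of a cytochrome oxidase subunit, 2.83-fold. The gap between the groups exceeded the spread within them in all 3 genes, and a lack of overlap was a condition of their choice. Fatty acid uptake and oxidation genes moved less, with 8 of 16 higher, 1 lower and a median of 0.19. Ucp3 rose by 1.08 ± 0.08, and Lpl, the lipase that feeds fatty acids to muscle, fell by 0.61 ± 0.14.

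**Figure D3:**
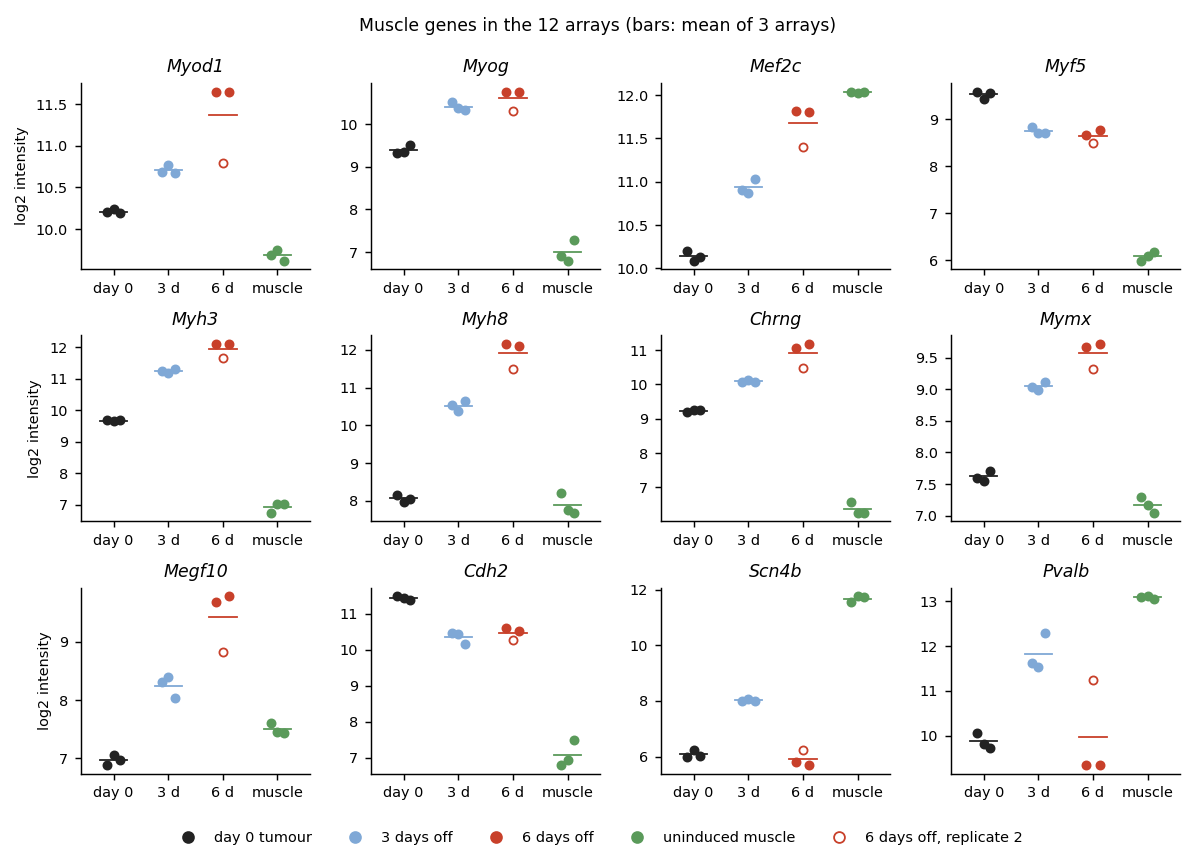
Log2 intensity (vertical axis) of 12 muscle genes on all 12 arrays, grouped as day 0, 3 days off, 6 days off and uninduced muscle, 1 point per array and a bar at the group mean. Myh8 and Chrng rise to their highest level at 6 days, whereas the adult fast-fibre genes Scn4b and Pvalb stand far below uninduced muscle, with Pvalb at 9.35, 11.25 and 9.34 on the 6-day arrays.

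Against the 3-day tumours, the 6-day tumours were higher in 1206 genes (6.05%) and lower in 874 (4.38%), with at least 2-fold differences in 76 and 32. This comparison shares the 6-day arrays with the one above and depended strongly on single arrays. Without 6-day replicate 2 the counts were 2401 and 2473, without 6-day replicate 1 they were 359 and 162, and without 6-day replicate 3 they were 318 and 134. Without 3-day replicate 1 they were 711 and 279, and without 3-day replicate 2 they were 587 and 318. A fit of these 6 arrays alone gave 19 and 11.

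Muscle genes were called higher at day 6 than at day 3 with all 12 arrays, for 13 of 22 myosin and thick filament genes (with 3 lower), 9 of 19 troponins, tropomyosins and actins, 11 of 19 Z-disc genes, 12 of 15 chaperone and turnover genes (with 1 lower) and 8 of 13 neuromuscular junction genes. Fusion genes were higher in 6 of 17 cases, or 11 without replicate 2, and excitation-contraction coupling genes in 6 of 23 with 2 lower, or 12 and 3 without it. These counts rest on the spread of all 4 groups. In the fit of the 6 arrays alone, none of the 53 lists had more than 1 gene called higher or more than 2 called lower than at day 3, which covers the list counts against day 3 in the paragraphs that follow too. There 1 myosin and thick filament gene, 1 chaperone gene and 1 neuromuscular junction gene were higher. Without 6-day replicate 1 or without replicate 3, the fit of all groups called 7 myosin and thick filament genes, 6 troponins, tropomyosins and actins and 8 Z-disc genes higher. Chaperone genes were then 8 and 7, neuromuscular junction genes 2, fusion genes 2 and excitation-contraction coupling genes 2. Myh8 was 1.40 higher (adjusted p = 0.00117), Tead4 1.27 higher and Megf10 1.18 higher than at day 3. By contrast Scn4b, a sodium channel subunit of fast fibres, was 2.12 lower (adjusted p = 8.5e-06), with 5.82, 6.22 and 5.68 at day 6 beside 5.99, 6.22 and 6.01 at day 0. The 6-day and day 0 arrays overlapped in Scn4b and their difference was not called (adjusted p = 0.327). Pvalb was 1.84 lower than at day 3, a call that was lost without 6-day replicate 1 (a difference of -1.53) or replicate 3 (-1.52). Its 6-day values were 9.35, 11.25 and 9.34, so that replicate 2 lay above and the other replicates below the day 0 values of 9.73 to 10.07. Against day 0 Pvalb was 0.10 higher with all arrays and 0.53 lower without replicate 2 (adjusted p = 0.0365). The largest rises since day 3 outside the muscle lists were those of Tcp11x2 (2.31), Hephl1 (2.27), Atp1b4 (2.26), a muscle protein related to the sodium pump, and Zdbf2 (2.08). Of the genes named here, the calls of Myh8, Scn4b and Atp1b4 were also made in the fit of the 6 arrays alone, and those of Tead4, Megf10, Pvalb, Tcp11x2, Hephl1 and Zdbf2 were not.

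Of the 36 chromosome segregation, 33 replication and 15 repair genes none was called in either direction with all arrays, and without replicate 2 the calls were 1 higher, 3 lower and 1 higher. Their differences from day 3 ran from -0.29 to 0.30, from -0.36 to 0.15 and from -0.24 to 0.32. Sterol synthesis genes were higher than at day 3 in 5 of 15 cases, by 0.48 to 0.88, and nucleotide, serine and one-carbon genes in 4 of 20, or in 8 and 7 without replicate 2. Ribosome biogenesis and Myc genes were higher in 7 of 22 cases and lower in 2, or 12 and 4 without it. ATF4 and amino acid response genes were higher in 2 of 17 cases, or 11 with 1 lower without it. Without 6-day replicate 1 and without replicate 3 the genes called higher fell to 0 for the sterol and ATF4 lists and to 1 for the nucleotide list, and for the ribosome list to 2 and 1. Ankrd1 was 0.92 higher than at day 3 (adjusted p = 0.00639) and Gadd45a 0.68 higher. Over the YAP-TEAD list 4 genes were higher and 3 lower, or 8 and 5 without replicate 2. Without 6-day replicate 1 or without replicate 3, 2 genes of that list were higher and 0 lower. Ccn2 was 0.33 higher (adjusted p = 0.0167), a call that was lost without 3-day replicate 2 (0.0516), 6-day replicate 1 (0.0539) or 6-day replicate 3 (0.0633).

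Bmp4 and Bmp2, related ligands of the BMP pathway, moved in opposite directions. Bmp4 read 11.2, 11.06 and 11.25 at day 0 and 7.59, 8.17 and 7.88 at day 6, a fall of 3.29 ± 0.13 (9.79-fold, adjusted p = 8.62e-09). Bmp2 read 6.44, 6.33 and 6.64 and then 7.9, 7.84 and 8.1, a rise of 1.48 ± 0.10. Neither gene overlapped between the groups, which was a condition of their choice. Of the 24 TGF-beta, BMP and activin genes 7 fell and 4 rose, among them the ligand Tgfb3 (1.05 ± 0.06 higher) and the activin subunit Inhbb (0.80 ± 0.12 lower). Over all genes 16.6% fell and 14.9% rose. In the Wnt response and antagonist list 8 of 20 rose and 2 fell. Rspo3 (R-spondin 3), which amplifies Wnt signals, rose from 6.44, 6.45 and 6.46 to 8.5, 8.27 and 8.37, and Lgr5, a receptor for R-spondins, rose by 1.76 ± 0.12. The ligand Wnt5a fell by 0.60 ± 0.08.

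The IGF and fetal growth network held 11 rises and 5 falls among 21 genes. Igf2, the fetal growth factor, read 11.02, 11.0 and 11.03 at day 0 and 12.63, 12.35 and 12.6 at day 6, a rise of 1.51 ± 0.09. Igf2bp1, an RNA-binding protein of fetal tissue that binds Igf2 transcripts, read 7.65, 7.87 and 7.65 and then 5.53, 5.45 and 5.48. The groups did not overlap in either gene, which was a condition of their choice. The 6-day mean of Igf2bp1 differed by -0.18 from that of uninduced muscle. Igfbp5 rose by 1.36 ± 0.10. Of 17 Notch pathway genes 4 fell and 3 rose, against 16.6% and 14.9% of all genes. At day 6, 4 Notch genes were lower than at day 3, or 8 without replicate 2. Without 6-day replicate 1 or without replicate 3, 2 were lower than at day 3. The ligand Dll1 fell by 0.62 ± 0.10.

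Epithelial and adhesion genes moved both ways. Krt8 (keratin 8) read 11.93, 12.02 and 11.86 at day 0 and 9.52, 9.98 and 9.34 at day 6, a fall of 2.32 ± 0.16, and its partner Krt18 fell by 0.86 ± 0.18. Sprr1a, a cornified envelope protein also induced by tissue injury, fell by 2.83 ± 0.20. Over the 23 keratin and epithelial surface genes 6 fell and 3 rose, with a median of 0.02. Of all genes tested, 16.6% fell and 14.9% rose. The largest rise of the list was that of Jup (plakoglobin, 0.90 ± 0.16). Among 24 integrins and laminins 11 rose and 6 fell. Itga3 and Itgb4, laminin-binding integrins of epithelia, fell by 2.21 ± 0.14 and 1.59 ± 0.09. Itga11, a collagen-binding integrin of fibroblasts, rose from 7.05, 7.15 and 7.09 to 8.54, 8.72 and 8.34.

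Fibroblast proteoglycans and matricellular genes rose in 18 of 27 cases and fell in 3, with a median of 0.64. Tnc (tenascin C) read 9.58, 9.61 and 9.66 at day 0 and 11.68, 11.04 and 11.63 at day 6. Dpt (dermatopontin) read 8.46, 8.24 and 8.41 and then 10.17, 11.21 and 10.23, a rise of 2.17 ± 0.21, or 1.83 without replicate 2. Replicate 2 was thus the lowest 6-day array for Tnc and the highest for Dpt. Neither gene overlapped with day 0, which was a condition of their choice. Thbs1 (thrombospondin 1), a matricellular protein, fell by 1.08 ± 0.11. Collagens moved little: 10 of 24 rose and 2 fell, with a median of 0.22. Col6a3 rose by 1.07 ± 0.09 and Col18a1 fell by 0.56 ± 0.12, while Col1a1 was 0.07 higher and not called. Against day 3, 11 collagens were lower and none higher, or 15 without replicate 2, and of the fibroblast genes 6 were lower and 1 higher, or 17 and 2 without replicate 2. Without 6-day replicate 1 or without replicate 3, 5 collagens and none of the fibroblast genes were lower.

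Of 24 matrix proteases and inhibitors 8 fell and 5 rose, or 11 and 5 without replicate 2, with medians of -0.06 and -0.16. The urokinase receptor Plaur fell from 9.88, 9.78 and 9.88 to 8.1, 8.05 and 8.11, and urokinase itself (Plau) fell by 1.17 ± 0.08. Mmp3 (stromelysin 1) rose by 1.48 ± 0.35, with 7.01, 8.8 and 7.0 on the 6-day arrays, and by 0.88 without replicate 2. Mmp9, a gelatinase, had the largest fall of this list and also belongs to the osteoclast list.

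Osteoclast genes fell in 14 of 20 cases with no rise, at a median of -0.43. Atp6v0d2 read 10.13, 10.03 and 10.06 at day 0 and 5.55, 6.17 and 5.55 at day 6, a fall of 4.32 ± 0.15 (19.9-fold, adjusted p = 3.39e-09). Mmp9 read 12.09, 12.03 and 12.08 and then 8.19, 9.0 and 8.07, a fall of 3.64 ± 0.23. In both genes the 6-day arrays lay far below every day 0 array, with replicate 2 the highest of them. A lack of overlap was a condition of their choice. The osteoclast receptor Oscar fell by 3.00 ± 0.10, and the fusion proteins of osteoclasts, Ocstamp and Dcstamp, fell by 2.39 ± 0.11 and 1.62. Ctsk (cathepsin K), the protease that degrades bone collagen, fell from 9.83, 9.94 and 9.87 to 7.84, 8.8 and 8.04. The summed intensity of the 20 genes went from between 21041 and 21408 at day 0 to between 11834 and 13515 at day 6. The part that a change in cell number plays in this was not tested.

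Most macrophage markers were not called. Of 24 measured, 5 fell and 1 rose, or 11 and 0 without replicate 2, with medians of -0.04 and -0.19. With all arrays, 16.6% of all genes fell and 14.9% rose. Adgre1 (F4/80), a defining marker, read 11.14, 11.18 and 11.14 at day 0 and 11.2, 11.78 and 11.13 at day 6 and was not called. Msr1, a scavenger receptor, fell from 10.8, 10.77 and 10.88 to 9.33, 9.62 and 9.4, and Gpnmb, a glycoprotein of lipid-loaded macrophages and osteoclasts, fell by 1.41 ± 0.14. Vsig4, a receptor of resident macrophages, read 7.04, 6.75 and 7.11 and then 4.88, 6.69 and 4.95, so that replicate 2 lay just below the day 0 range. It fell by 1.46 ± 0.38, or 2.06 without replicate 2. Csf1, the cytokine on which macrophages and osteoclasts depend, fell from 10.51, 10.35 and 10.49 to 8.9, 8.95 and 8.97, a difference of 1.51 ± 0.09 in which the 3 arrays of each group lay close together. Against day 3, 6 macrophage markers were lower, or 19 without replicate 2, 1 without replicate 1 and 0 without replicate 3.

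Granzymes of 1 cluster fell steeply. Gzmf read 10.2, 10.21 and 10.23 at day 0 and 5.61, 6.78 and 5.53 at day 6, a fall of 4.24 ± 0.31 (18.9-fold). Gzmd fell by 3.97 ± 0.25, Gzmg by 3.66 ± 0.25 and Gzme by 2.43 ± 0.26. These genes are close copies of each other, so a probe set may read more than 1 of them and their separate values are uncertain. Gzmf, Gzmd and Gzmg, but not Gzme, were also the genes with the largest falls since day 3, by 3.15, 2.72 and 2.27. Prf1 (perforin), which opens the target cell for granzymes, fell by 1.69 (adjusted p = 5.35e-07), while Gzma, a granzyme of another cluster, differed by -0.16 and was not called (adjusted p = 0.508). Some other markers of cytotoxic cells rose. Nkg7, a granule protein, went from 7.53, 7.6 and 7.7 to 8.26, 9.01 and 8.44, a rise of 0.96 ± 0.17, and the NK receptor Ncr1 read 6.12, 6.11 and 6.07 and then 6.41, 7.69 and 6.72. The rise of Ncr1 passed with all arrays (adjusted p = 0.0227) but not without any 1 of the day 0 arrays (0.0581, 0.0547 and 0.0657). Over the 23 T, B and NK cell markers 7 fell and 3 rose, against 16.6% and 14.9% of all genes, with a median of 0.12. At day 6, 7 of the markers were wholly higher and 7 wholly lower, against 26.9% and 21.6% of all genes. Their summed intensity went from between 7229 and 7764 to between 2478 and 3717. Gzmd, Gzmf and Gzmg carried most of that fall, from between 3818 and 4134 to between 224 and 348. The other 20 genes summed to between 3410 and 3672 at day 0 and to 2254, 3369 and 2303 on the 6-day arrays. Cd3e, Ms4a1 and Klrb1c were low throughout.

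Antigen presentation genes rose. In the dendritic cell and MHC class II list 12 of 13 rose and none fell, with a median of 0.88 (0.63 without replicate 2). H2-Ab1, a class II chain, read 10.27, 10.36 and 10.31 at day 0 and 11.58, 12.04 and 11.49 at day 6, a rise of 1.39 ± 0.13, and Cd74, the invariant chain, rose by 1.23 ± 0.10. The summed intensity of the list went from between 6992 and 7213 to between 14233 and 18665. Against day 3, 3 of its genes were lower, or 8 without replicate 2 with 1 higher. Without 6-day replicate 1 or without replicate 3, none was lower. Of 17 interferon response genes 11 rose and none fell, or 11 and 1 without replicate 2. Cxcl9, a chemokine induced by interferon gamma, read 9.54, 9.49 and 9.66 and then 11.36, 11.55 and 11.37, a rise of 1.86 ± 0.10, and was 0.68 higher than at day 3. The 3 arrays of each group lay close together in Cxcl9, replicate 2 included.

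**Figure D4:**
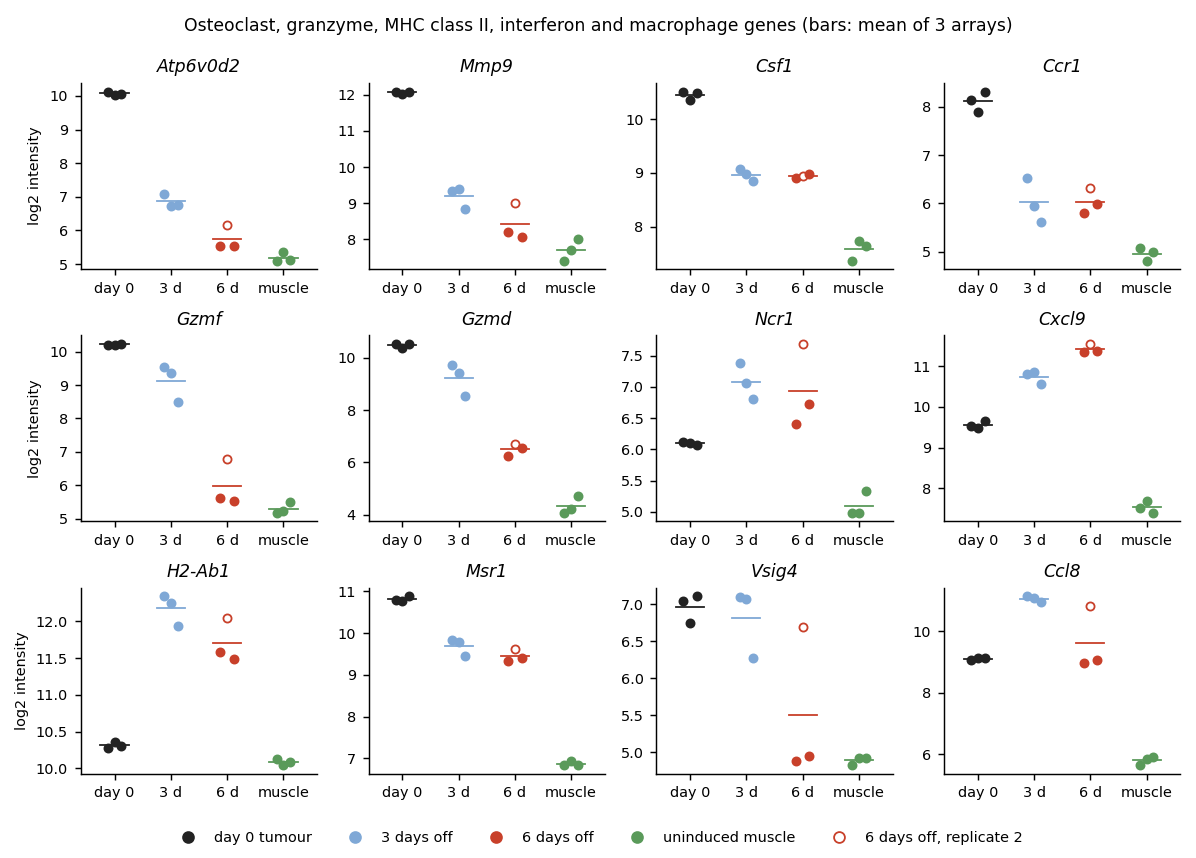
Log2 intensity (vertical axis) of 12 immune and osteoclast genes on all 12 arrays, grouped as day 0, 3 days off, 6 days off and uninduced muscle, 1 point per array and a bar at the group mean. Atp6v0d2, Mmp9, Gzmf and Gzmd fall between day 0 and 6 days, while Cxcl9 and H2-Ab1 rise, and replicate 2 of the 6-day group sits apart for Vsig4 (6.69) and Ccl8 (10.84).

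Chemokines and their receptors moved both ways, with 13 of 28 higher and 5 lower (7 without replicate 2). The receptor Ccr1 fell from 8.15, 7.89 and 8.32 to 5.8, 6.32 and 5.98. Ccl11 (eotaxin) rose by 1.38 ± 0.12 and Ccl17 by 1.46 ± 0.22. Ccl8 read 9.05, 9.14 and 9.14 at day 0 and 8.97, 10.84 and 9.07 at day 6, which was not called. Of 15 complement genes 5 rose and 3 fell, and the number of falls was 5 without replicate 2. The shares over all genes were 14.9% higher and 16.6% lower. C7, the terminal component, rose by 1.93 ± 0.25, while Cfp (properdin) fell by 1.51 ± 0.23 and Clu (clusterin) by 1.19 ± 0.14. Neutrophil markers gave 1 rise among 13, that of Csf3r (0.84 ± 0.17). Of 13 mast cell and eosinophil markers 1 fell (Gata2, by 0.46 ± 0.08). Tpsab1, a mast cell tryptase, read 7.91, 7.96 and 7.94 and then 8.26, 9.9 and 8.44, a difference of 0.93 that was not called, and the list's summed intensity on the 6-day arrays ran from 2340 to 5644 against 2480 to 2536 at day 0.

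Vessel markers rose in part. Of 21 endothelial markers 12 rose and 1 fell (median 0.28), or 11 and 1 without replicate 2 (median 0.16). Among 15 genes of pericytes and smooth muscle there were 8 rises and 1 fall (2 without replicate 2, median 0.38). Prox1, the factor of lymphatic endothelium that muscle fibres also express, rose from 6.22, 6.25 and 6.34 to 7.66, 7.3 and 7.49. Vwf and Tek, genes of blood vessel endothelium, rose by 0.85 ± 0.13 and 0.75 ± 0.13. Esm1, a marker of sprouting tip cells, fell from 6.81, 6.75 and 6.81 to 5.67, 5.7 and 5.66. Abcc9, a potassium channel subunit of pericytes and also of muscle, rose by 1.99 ± 0.11, and the pericyte gene Rgs5 by 0.78 ± 0.13. Among adipocyte markers 3 of 13 rose, including Pparg (0.73 ± 0.12), and among Schwann cell markers 2 of 9 rose, Erbb3 and the sodium channel Scn7a (1.19 ± 0.21). Over all genes 14.9% rose. None of 4 erythroid markers was called.

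The remaining lists described the state of the cells. Of 14 circadian clock genes 8 rose and 2 fell, or 11 and 2 without replicate 2. Dbp read 7.24, 7.27 and 7.51 at day 0 and 9.17, 9.38 and 9.2 at day 6, a rise of 1.91 ± 0.08, and Tef, a factor of the same family, rose by 1.34 ± 0.08. The third member of that family, Hlf, fell by 0.37 ± 0.09. The hour of collection is not in the labels used here, and its part was not tested. Of 17 p53 and apoptosis genes 6 rose and 3 fell, led by the BH3 gene Pmaip1 (1.09 ± 0.13 higher) and the death receptor Tnfrsf10b (1.12 ± 0.15 lower). In the lysosome and autophagy list 6 of 20 rose and none fell, among them Map1lc3a (1.12 ± 0.10) and Tfeb (0.60 ± 0.08), the factor that switches on lysosomal genes. Of 24 Hox genes 5 fell, by 0.26 to 0.57, and 3 rose, by 0.33 to 0.43, and none of the 4 sex-linked genes was called. The counts of this paragraph stand beside shares of 16.6% lower and 14.9% higher over all genes.

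**Figure D5:**
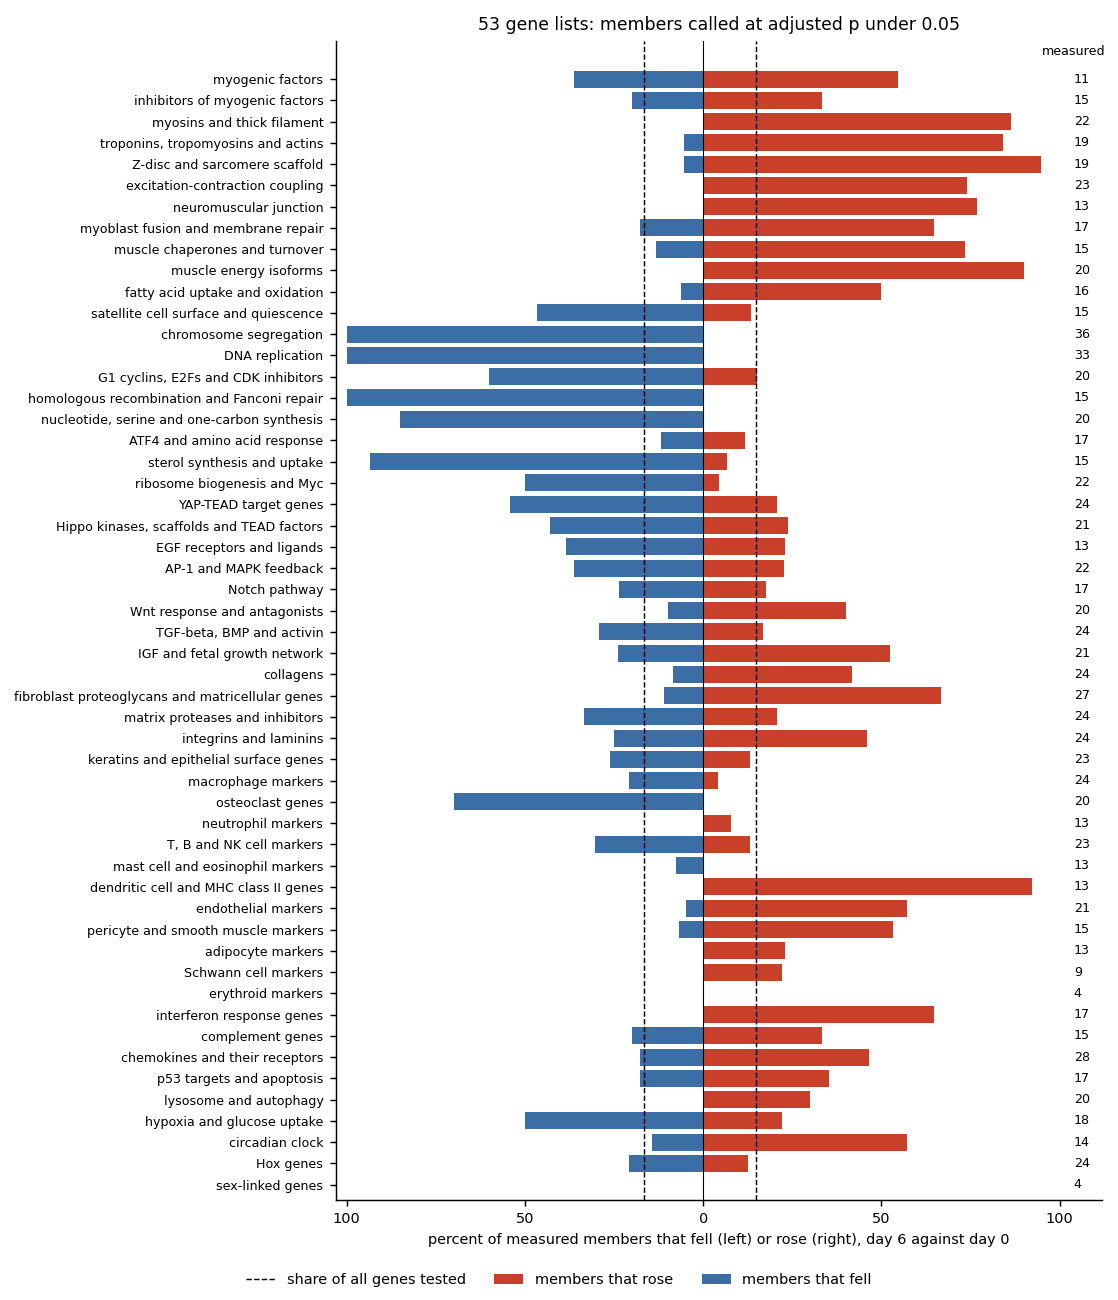
Percent of measured members that rose (right) and fell (left) at 6 days against day 0 for each of the 53 gene lists, with dashed lines at the shares over all genes, 14.9% and 16.6%. Chromosome segregation, DNA replication and homologous recombination reach 100% on the falling side, while the sarcomere and energy lists fill the rising side.

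Set against uninduced muscle, the 6-day tumours were higher in 5602 genes (28.1%) and lower in 7188 (36.1%). With each array centred on its median the counts were 4486 and 12001, so the split between directions depends on the scaling. The uninduced muscle came from C57BL/6 mice, whereas the tumours grew from cells put into NOD/SCID hosts. Host, grafting and tumour therefore cannot be told apart in this comparison. Of 4 sex-linked genes 3 were higher in the 6-day tumours. The myosin and thick filament list was lower in 14 of 22 cases and higher in 6, excitation-contraction coupling lower in 18 of 23 and higher in 2, and energy isoforms lower in 20 of 20. Myh3, Chrng and Myh8, the developmental forms, were 5.02, 4.54 and 4.04 above uninduced muscle. Chromosome segregation genes were higher than in uninduced muscle in 31 of 36 cases and lower in 2, with a median of 1.02. Interferon response genes were higher in 17 of 17 and macrophage markers in 19 of 24, with 3 lower. Circadian genes were lower in 13 of 14.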

How the data were processed

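Total RNA of 12 samples, extracted with Trizol and an RNeasy kit per the labels, was hybridised as biotin-marked cRNA to 1-colour mouse arrays. Each deposited value is a linear intensity per probe set, computed by the authors with RMA (background correction, normalisation and probe summary) per the submitters' processing notes, version not given in the sources used here. Log2 of the deposited intensity was taken here. Of 34760 probe sets, the 21640 with 1 gene symbol were used, and for 954 genes with several the probe set of highest mean entered. RMA shrinks differences of dim probe sets, and no filter on low values was applied.

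limma 3.58.1 in R 4.3.3 fitted 1 mean for each group over the 12 arrays together. Tests were two-sided, with Benjamini-Hochberg adjustment over 19937 genes within each comparison. The fit was tested on simulated data. The median standard error was 0.0863, and the number of arrays limits the precision. Python 3.11.15 and matplotlib 3.10.9 made the figures.

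The 53 gene lists (972 of 1031 genes measured, 21 in more than 1 list) and the genes named were chosen with earlier results of these data known. The rule named Yap1, Ccn1, Ccn2, Ankrd1, Amotl2, Ajuba, Myod1, Myog, Myh3, Myh8, Mki67, Ccnd1 and Myc, and drew others from the 15 largest called rises and falls without overlap (predicted, small RNA and olfactory receptor genes left out). It added up to 4 called members per list whose arrays did not overlap between day 0 and day 6, plus the largest in the minority direction. It also added 8 genes each way against day 3, again without overlap, and 6 each way for the spread of the 6-day arrays. In lists with fewer than 3 called members the largest was named. Des, Cd3e, Ms4a1, Klrb1c, Uty, Pax7, Ctsk, Dcstamp, Prf1, Gzma, Ncr1, Adgre1 and Col1a1 were added after their values were seen. Replicate numbers were not used to pair the samples in the main fit. The alternatives tried were other scalings, probe set choices, array weights, filters, thresholds, a replicate block and leaving out each array.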

Additional observations from a re-analysis of the deposited data

How the results depend on the processing

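Genes higher than at day 0 (2962) became 5658 with array weights, 1931 at an adjusted p under 0.01 and 465 at 2-fold, and genes lower than at day 0 (3317) became 427 at 2-fold. Against day 3, the 1206 higher genes became 4120 with array weights, 19 with the 6 arrays alone, 324 at 0.01 and 76 at 2-fold, and the 874 lower genes became 4304, 11, 143 and 32. Against uninduced muscle, the 5602 higher genes became 2124 at 2-fold, and the 7188 lower genes became 3240 among genes above the median level, 12001 with median centring and 1296 at 2-fold. Leaving out 1 array gave 2226 to 3222 genes higher and 2630 to 3664 lower than at day 0, 318 to 2401 and 134 to 2473 against day 3, and 5361 to 5627 and 6098 to 6906 against uninduced muscle. Deviations from the group means of same-numbered 6-day and day 0 samples had correlations of 0.0324, -0.0905 and 0.0575. Against day 3 they were -0.254, -0.153 and -0.0529, and against uninduced muscle 0.187, 0.0911 and 0.015. With 3 arrays per group these values cannot settle whether the numbers pair the samples. With a replicate block the counts were 2770 and 3121 against day 0, 965 and 689 against day 3, and 5508 and 6771 against uninduced muscle. Of the 242 named genes called against day 0, 13 lost their call in 1 or more settings other than the stricter thresholds, 2 of them with the block. Pvalb (0.10 against day 0) reversed to -0.54 with array weights and ran from -0.53 to 0.43 when 1 array was left out. Uty (0.05) reversed to -0.29 with array weights. Tpm3 reversed from -0.33 to 0.22 and 0.93 against day 0, and from -0.07 to 0.30 and 0.67 against day 3, with the median and the most variable of its probe sets. The medians of 11 lists changed sign in 1 or more settings: inhibitors of myogenic factors, ATF4, EGF, Notch, matrix proteases, keratins, macrophage, T, B and NK cells, complement, Hox and sex-linked genes. The homologous recombination and erythroid lists held no gene above the median level, so that setting was not run for them. The cause of these differences was not tested.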
